A study of Mus musculus with 8 samples.

Results

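The genes described here encode 38 subunits of the corepressor complexes that carry the histone deacetylases HDAC1 and HDAC2. They were chosen by name from the gene symbols of the deposited count table, and all 38 were found among its 41128 genes. By complex, 4 belong to the catalytic and histone-binding core that several complexes share (Hdac1, Hdac2, Rbbp4 and Rbbp7), 10 to NuRD, 13 to Sin3, 8 to CoREST, 1 to MiDAC and 2 to NCoR. All 38 were among the 14179 genes that passed the filter on low counts. RNA was sequenced from haemogenic endothelium, the endothelium that gives rise to blood cells, made in culture from C57BL/6 mouse embryonic stem (ES) cells. A line with lox sites in both copies of Hdac1 (Hdac1 lox/lox, the Hdac1 line) and a line with lox sites in both copies of Hdac2 (Hdac2 lox/lox, the Hdac2 line) were each given 4-hydroxytamoxifen (4OHT), which switches on tamoxifen-dependent Cre recombinases, or ethanol (EtOH), a usual solvent for it. The 4 groups, Hdac1 lox/lox 4OHT, Hdac1 lox/lox EtOH, Hdac2 lox/lox 4OHT and Hdac2 lox/lox EtOH, held 2 libraries each. All groups carry lox sites at one of these genes. The Cre transgene and its promoter, the number of clones behind each line, the duration of treatment and whether replicates were separate cultures were not given in the labels, so p-values measure only the spread between these libraries, which may be technical.

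HDAC1 and HDAC2 remove acetyl groups from histone tails and work almost only as parts of larger assemblies. NuRD couples deacetylation to nucleosome remodelling and to binding of methylated DNA. Sin3 complexes are recruited by sequence-specific repressors, and CoREST joins a deacetylase to the histone demethylase LSD1. In blood-forming endothelium the Gfi1 and Gfi1b repressors are known to recruit the LSD1-CoREST complex to endothelial genes. MiDAC is an HDAC1/2 complex of dividing cells, and NCoR mainly works with HDAC3.

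Total counts ranged from 10215792 to 19552380 per library. Levels are CPM, counts relative to the TMM-scaled library size, with replicate 1 given before replicate 2. A gene was called at a Benjamini-Hochberg adjusted p under 0.05 over all tested genes in edgeR's quasi-likelihood test. Endothelial markers (Cdh5, Kdr, Pecam1, Tek and Eng) were all present in every library, with summed levels of 5579 and 3975 CPM in Hdac1 4OHT, 3262 and 4990 CPM in Hdac1 EtOH, 5655 and 7436 CPM in Hdac2 4OHT, and 2309 and 2459 CPM in Hdac2 EtOH. Pluripotency markers summed to at most 2.30 CPM and endoderm markers to at most 1.40 CPM, while neuronal markers summed to 27.6 to 82.0 CPM with 0 called in any comparison. Ddx3y, a Y-linked gene, stood at 25.8 to 45.7 CPM in the Hdac1 line and at 0.324 to 0.889 CPM in 3 libraries of the Hdac2 line, but at 4.58 CPM in Hdac2 EtOH replicate 2. That library therefore stands apart from the others of its line, and the counts of genes called are also given without it. Without it, 0 of the subunit genes, of the marker genes and of the other pathway genes described at the end were called in the Hdac2 line, between the EtOH groups or for the difference between the lines, and 0%, 0.0271% and 0% of all genes tested were called in those comparisons. The 16 marker genes called in the Hdac2 line with all libraries kept their sign without it. Their 4OHT and EtOH libraries did not overlap, so leaving out 1 library could hardly change a sign.

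The targeted genes did not check the labels. Hdac2, on chromosome 10 from 36974544 to 37001889 (mm10), had 149 and 149 CPM in Hdac2 4OHT libraries, against 165 and 151 CPM in Hdac2 EtOH libraries. Its log2 fold change was -0.08 ± 0.14 (SE), with a 95% interval from -0.41 to 0.25. Hdac1, on chromosome 4 from 129516104 to 129542713, had 6.99 and 7.12 CPM in Hdac1 4OHT libraries, against 5.78 and 5.60 CPM in Hdac1 EtOH libraries. Neither gene was called in the line that carries its lox sites (adjusted p = 0.672 for Hdac2 and 0.844 for Hdac1). For Hdac2 both 4OHT libraries lay below both EtOH libraries, as they did for 39.7% of all genes tested. With the length and GC offsets described below, the log2 fold change of Hdac2 was 0.08 (adjusted p = 0.616). Counts cover the whole gene, so loss of a lox-flanked part need not lower them, and groups are named as labelled. For Hdac1 there is a further limit, since Gm10093 on chromosome 17 matches its longest transcript at 99.38% identity over 1444 bases and held 110.5 and 115 CPM in Hdac1 4OHT and 146 and 125 CPM in Hdac1 EtOH, many times the count given to Hdac1 itself. Summed with this copy, Hdac1 had 117 and 122 CPM in Hdac1 4OHT and 152 and 130.4 CPM in Hdac1 EtOH, and its log2 fold change was -0.24 (adjusted p = 0.81) in place of 0.31. The direction of Hdac1 in its own line thus turns with the treatment of the copy.

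Per kilobase of longest annotated transcript, averaged over the 8 libraries, the levels of the 38 genes ran from 109.8 CPM per kb for Rbbp7 to 3.02 CPM per kb for Hdac1. After Rbbp7, a histone chaperone that binds histone H4, came Mbd3 at 97.8 CPM per kb and the NuRD remodelling ATPase Chd4 at 88.6 CPM per kb. The library ranges of Rbbp7 (96.4 to 131 CPM per kb) and Mbd3 (86.5 to 118 CPM per kb) overlap, so their order is not set by these data. Hdac2 stood at 45.95 CPM per kb, close to Kdm1a, the LSD1 demethylase, at 46.0 CPM per kb. The lowest after Hdac1 were Rcor3 at 4.11 CPM per kb, Sap18 at 4.28 CPM per kb and Gatad2b at 4.38 CPM per kb. The values of Hdac1, Sap18, Rbbp7 and Cdk2ap1 depend on how reads shared with their copies were assigned. Summed with Gm10093, Hdac1 had 113 to 163 CPM over the 8 libraries, against 4.00 to 7.45 CPM by itself. Its last place thus depends on that assignment. Gm10094, which matches Sap18 at 100% identity over 780 bases, held 75.2 and 80.0 CPM in Hdac1 4OHT, 90.8 and 67.8 CPM in Hdac1 EtOH, 57.2 and 47.0 CPM in Hdac2 4OHT and 53.1 and 61.4 CPM in Hdac2 EtOH.

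**Figure D1:**
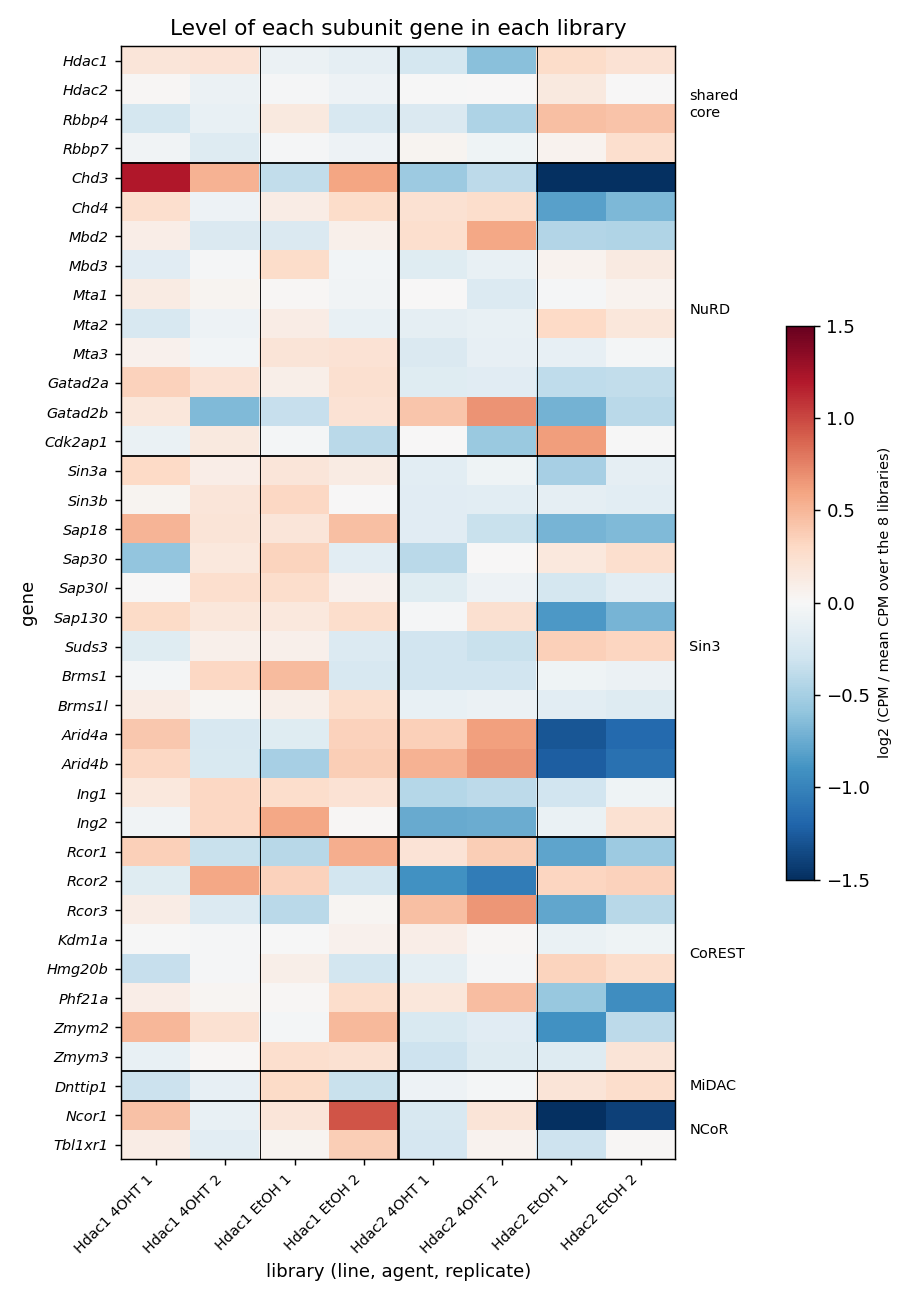
Level of each of the 38 subunit genes (rows, by complex) in each of the 8 libraries (columns), as log2 of CPM over the gene's mean CPM in all 8 libraries; colours end at -1.5 and 1.5. The Hdac2 EtOH columns are low for Chd3, Arid4a, Arid4b and Ncor1, and the Hdac2 4OHT columns are low for Rcor2.

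In the Hdac2 line, 14 of the 38 subunit genes were called after 4OHT, 10 higher and 4 lower. That is 36.8% of the subunits, against 36.1% of all genes tested (18.9% higher and 17.2% lower), so the number of calls does not set these genes apart from the rest. The median log2 fold change was 0.02 over the 38 genes and -0.02 over all genes tested. The calls fell within complexes rather than on whole complexes: 4 of 10 NuRD genes were higher and 0 lower, 3 of 13 Sin3 genes were higher and 2 lower, 2 of 8 CoREST genes were higher and 1 lower, 1 of 2 NCoR genes was higher, and 1 of 4 core genes was lower. At an unadjusted p under 0.05 there were 11 higher and 5 lower, against 25.2% and 24.4% of all genes (49.6% in either direction). The 4OHT and EtOH libraries did not overlap for 16 genes higher and 16 lower, against 38.6% and 39.7% of all genes tested (78.3% in either direction).

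The calls rest on all 4 libraries of the line. With Hdac2 EtOH replicate 1, Hdac2 EtOH replicate 2 or Hdac2 4OHT replicate 2 left out, 0 of the 38 genes were called by edgeR, against 0.801%, 0% and 0.616% of all genes tested, and 5 were called without Hdac2 4OHT replicate 1, against 5.60% of all genes. These fits take the spread of a group left with 1 library from the other groups. All 14 genes kept their sign in each of the 4 fits. Their 4OHT and EtOH libraries did not overlap, so leaving out 1 library could hardly change a sign, and this adds no support.

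Cell type markers moved with this comparison, and their part in the results below was not tested. Of the 27 marker genes tested, 59.3% were called, against 36.1% of all genes (18.9% higher and 17.2% lower). Of 5 endothelial markers, 4 were called higher and 0 lower in Hdac2 4OHT, and of 5 erythroid markers (Gata1, Klf1, Epor, Hbb-bh1 and Hba-x) 4 were called lower and 0 higher. The erythroid sum was 312 and 202 CPM in Hdac2 4OHT, against 1560 and 1516 CPM in Hdac2 EtOH, so all 4 libraries held erythroid RNA. Of 5 haemogenic and early blood markers 2 were lower, with sums of 358 and 392 CPM in Hdac2 4OHT and 696 and 804 CPM in Hdac2 EtOH. Smooth muscle markers, 3 of 3 higher, summed to 1380 and 945 CPM in Hdac2 4OHT and 470 and 194 CPM in Hdac2 EtOH. Macrophage markers, 2 of 2 tested higher, summed to 19.01 and 11.7 CPM in Hdac2 4OHT and 5.06 and 1.53 CPM in Hdac2 EtOH, and 1 of 3 cardiac markers was higher, with sums of 18.003 and 21.3 CPM in Hdac2 4OHT and 5.90 and 3.53 CPM in Hdac2 EtOH. In such bulk samples fewer cells of a type and less RNA per cell cannot be told apart.

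Within the shared core, Rbbp4 fell in Hdac2 4OHT while its paralogue Rbbp7 was not called. Both encode WD-repeat histone chaperones that sit in NuRD, Sin3 and several other complexes. Rbbp4 had 241 and 203 CPM in Hdac2 4OHT, against 384 and 378 CPM in Hdac2 EtOH (log2 fold change -0.78 ± 0.18 (SE), adjusted p = 0.0191). Rbbp7 had 253 and 236 CPM in Hdac2 4OHT, against 256 and 294 CPM in Hdac2 EtOH (log2 fold change -0.17, adjusted p = 0.4). As a share of the pair's summed CPM per kb, Rbbp4 made up 31.4 and 29.3% in Hdac2 4OHT and 41.9 and 38.2% in Hdac2 EtOH, and the groups did not overlap. Shares also did not overlap in pairs without a called gene, such as Sap30 and Sap30l. The Rbbp4 share leaves out the copy of Rbbp7 given below. Hdac1 had 5.12 and 4.00 CPM in Hdac2 4OHT, against 7.45 and 7.16 CPM in Hdac2 EtOH, and missed the threshold (log2 fold change -0.68, adjusted p = 0.0565). Summed with Gm10093, its levels were 116 and 113 CPM in Hdac2 4OHT and 163 and 141 CPM in Hdac2 EtOH, with a log2 fold change of -0.41 (adjusted p = 0.0689). Both estimates were below 0 and neither passed the threshold. With the length and GC offsets described below, Hdac1 without its copy had a log2 fold change of -0.37 (adjusted p = 0.258). Gm10093 had one of 0.05 (adjusted p = 0.748). Rbbp7 also has a copy, Gm6382 on chromosome X, at 97.13% identity over 942 bases, which held 203 and 192 CPM in Hdac2 4OHT and 229 and 221 CPM in Hdac2 EtOH.

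Among the 10 NuRD genes, both remodelling ATPases, Chd3 and Chd4, rose in Hdac2 4OHT. Chd4 had 695 and 712 CPM in Hdac2 4OHT, against 337 and 371 CPM in Hdac2 EtOH (log2 fold change 0.99 ± 0.18 (SE), adjusted p = 0.0105). Chd3 had 35.1 and 39.1 CPM in Hdac2 4OHT, against 14.3 and 12.9 CPM in Hdac2 EtOH (log2 fold change 1.45 ± 0.35 (SE), adjusted p = 0.0198). Both EtOH libraries lay well below both 4OHT libraries for each ATPase. With the length and GC offsets described below, both calls were lost (0.26, adjusted p = 0.174 for Chd4, and 0.56, adjusted p = 0.0577 for Chd3), and of the 4 NuRD genes called higher only Mbd2 was still called. Chd4 remained the main ATPase transcript, with 95.6 and 95.2% of the pair's CPM per kb in Hdac2 4OHT and 96.2 and 96.9% in Hdac2 EtOH. Mbd2, whose product binds methylated CpG, had 87.1 and 109 CPM in Hdac2 4OHT, against 53.9 and 53.4 CPM in Hdac2 EtOH (log2 fold change 0.87 ± 0.19 (SE), adjusted p = 0.0165). Its paralogue Mbd3, whose mammalian product binds methylated DNA poorly and which excludes Mbd2 from the same NuRD particle, had 144 and 150.4 CPM in Hdac2 4OHT and 169 and 179 CPM in Hdac2 EtOH and was not called (adjusted p = 0.259). The Mbd2 share of the pair was 34.0 and 38.1% in Hdac2 4OHT, against 21.3 and 20.3% in Hdac2 EtOH, with no overlap.

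Gatad2b, one of the p66 subunits that link Mbd proteins to the ATPase, had 43.3 and 51.9 CPM in Hdac2 4OHT, against 19.9 and 24.6 CPM in Hdac2 EtOH (log2 fold change 1.10 ± 0.31 (SE), adjusted p = 0.0312). The more abundant p66 gene Gatad2a was not called (log2 fold change 0.20, adjusted p = 0.302), and Gatad2b made up 8.59 and 10.1% of the pair in Hdac2 4OHT and 4.73 and 5.74% in Hdac2 EtOH. None of the MTA scaffold genes was called: their log2 fold changes were -0.11 for Mta1, -0.36 for Mta2 and -0.10 for Mta3, with adjusted p-values of 0.557, 0.104 and 0.603. Cdk2ap1, a small NuRD subunit, had 11.0 and 7.46 CPM in Hdac2 4OHT and 16.9 and 10.9 CPM in Hdac2 EtOH, which overlap, and was not called (log2 fold change -0.59, adjusted p = 0.154). Its counts are uncertain, because Gm12184 on chromosome 11 matches its transcript at 99.38% identity and held 14.5 and 11.1 CPM in Hdac2 4OHT and 20.7 and 15.8 CPM in Hdac2 EtOH. Summed, the pair gave a log2 fold change of -0.55 (adjusted p = 0.118).

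In the Sin3 complex the scaffolds Sin3a and Sin3b were not called, and the calls fell on accessory subunits in both directions. Sin3a had a log2 fold change of 0.19 (adjusted p = 0.385) and Sin3b one of -0.02 (adjusted p = 0.936). Arid4a and Arid4b, paralogues whose products bind the retinoblastoma protein, were the most raised of the 38 genes. Arid4a, on chromosome 12 from 71015990 to 71098592, had 45.2 and 54.0 CPM in Hdac2 4OHT, against 14.5 and 15.7 CPM in Hdac2 EtOH (log2 fold change 1.72 ± 0.27 (SE), adjusted p = 0.00882). Arid4b, on chromosome 13 from 14063232 to 14199603, had 76.9 and 84.4 CPM in Hdac2 4OHT, against 22.8 and 24.6 CPM in Hdac2 EtOH (log2 fold change 1.77 ± 0.31 (SE), adjusted p = 0.0102). The pair moved together, so that the Arid4a share of their CPM per kb was 40.8 and 42.9% in Hdac2 4OHT and 42.7 and 42.7% in Hdac2 EtOH, with overlap. Arid4b shares 257 exonic bases with Ggps1 on the opposite strand, which had 0.732 times its mean count, and as the labels name no strand setting for the counting, its level is uncertain.

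Sap130, a Sin3-associated scaffold protein, had 87.7 and 105 CPM in Hdac2 4OHT, against 48.7 and 55.0 CPM in Hdac2 EtOH (log2 fold change 0.90 ± 0.16 (SE), adjusted p = 0.011). Suds3, the mouse SDS3 protein that holds HDAC1 in the complex, went the other way, with 47.6 and 46.1 CPM in Hdac2 4OHT, against 74.5 and 72.5 CPM in Hdac2 EtOH (log2 fold change -0.65 ± 0.17 (SE), adjusted p = 0.0233). Its paralogues Brms1 and Brms1l were not called, at log2 fold changes of -0.21 and 0.08 with adjusted p-values of 0.503 and 0.693. Ing2, which reads methylated histone H3 tails through its PHD finger, had 21.8 and 21.9 CPM in Hdac2 4OHT, against 34.5 and 43.1 CPM in Hdac2 EtOH (log2 fold change -0.82 ± 0.24 (SE), adjusted p = 0.0328). Its paralogue Ing1 was not called (log2 fold change -0.24, adjusted p = 0.235), and the Ing2 share of the pair was 26.5 and 26.0% in Hdac2 4OHT and 33.9 and 35.6% in Hdac2 EtOH, without overlap. The remaining accessory genes Sap18, Sap30 and Sap30l were not called, with log2 fold changes of 0.43, -0.39 and 0.08 and adjusted p-values of 0.112, 0.3 and 0.735.

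CoREST showed paralogues with opposite calls. Rcor1, Rcor2 and Rcor3 encode alternative scaffolds that bridge LSD1 to the deacetylase. Rcor2, on chromosome 19 from 7267325 to 7275225, had 10.6 and 9.60 CPM in Hdac2 4OHT, against 24.8 and 25.3 CPM in Hdac2 EtOH (log2 fold change -1.31 ± 0.31 (SE), adjusted p = 0.0188). Rcor3, on chromosome 1 from 192098656 to 192138010, had 21.3 and 24.6 CPM in Hdac2 4OHT, against 9.07 and 11.7 CPM in Hdac2 EtOH (log2 fold change 1.15 ± 0.24 (SE), adjusted p = 0.0147). Rcor1 had 111 and 124 CPM in Hdac2 4OHT and 55.4 and 66.0 CPM in Hdac2 EtOH, without overlap, but missed the threshold (log2 fold change 0.95 ± 0.34 (SE), adjusted p = 0.0594). With the length and GC offsets described below, the log2 fold change of Rcor1 was 0.43 (adjusted p = 0.157). Rcor2 was thus lower in both 4OHT libraries, while Rcor1 and Rcor3 were higher in both.

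Set against each other per kilobase, without those offsets, the Rcor scaffolds made up different shares in the groups. Rcor2 contributed 13.0 and 10.7% of their summed CPM per kb in Hdac2 4OHT, against 42.0 and 37.9% in Hdac2 EtOH. Rcor1 contributed 67.5 and 68.9% in Hdac2 4OHT, against 46.5 and 49.1% in Hdac2 EtOH, and Rcor3 contributed 19.5 and 20.4% in Hdac2 4OHT, against 11.4 and 13.0% in Hdac2 EtOH. None of these shares overlapped between the groups, but an exact permutation test of 2 libraries against 2 cannot give a p below 0.333. The levels of 78.3% of all genes tested did not overlap between these groups either. Shares also did not overlap in pairs without a called gene, such as Sap30 and Sap30l, Brms1 and Brms1l, and Zmym2 and Zmym3. In the Hdac1 line the Rcor2 share was 19.3 and 38.3% in Hdac1 4OHT and 36.2 and 16.8% in Hdac1 EtOH, so that it differed more between replicates than between agents.

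**Figure D2:**
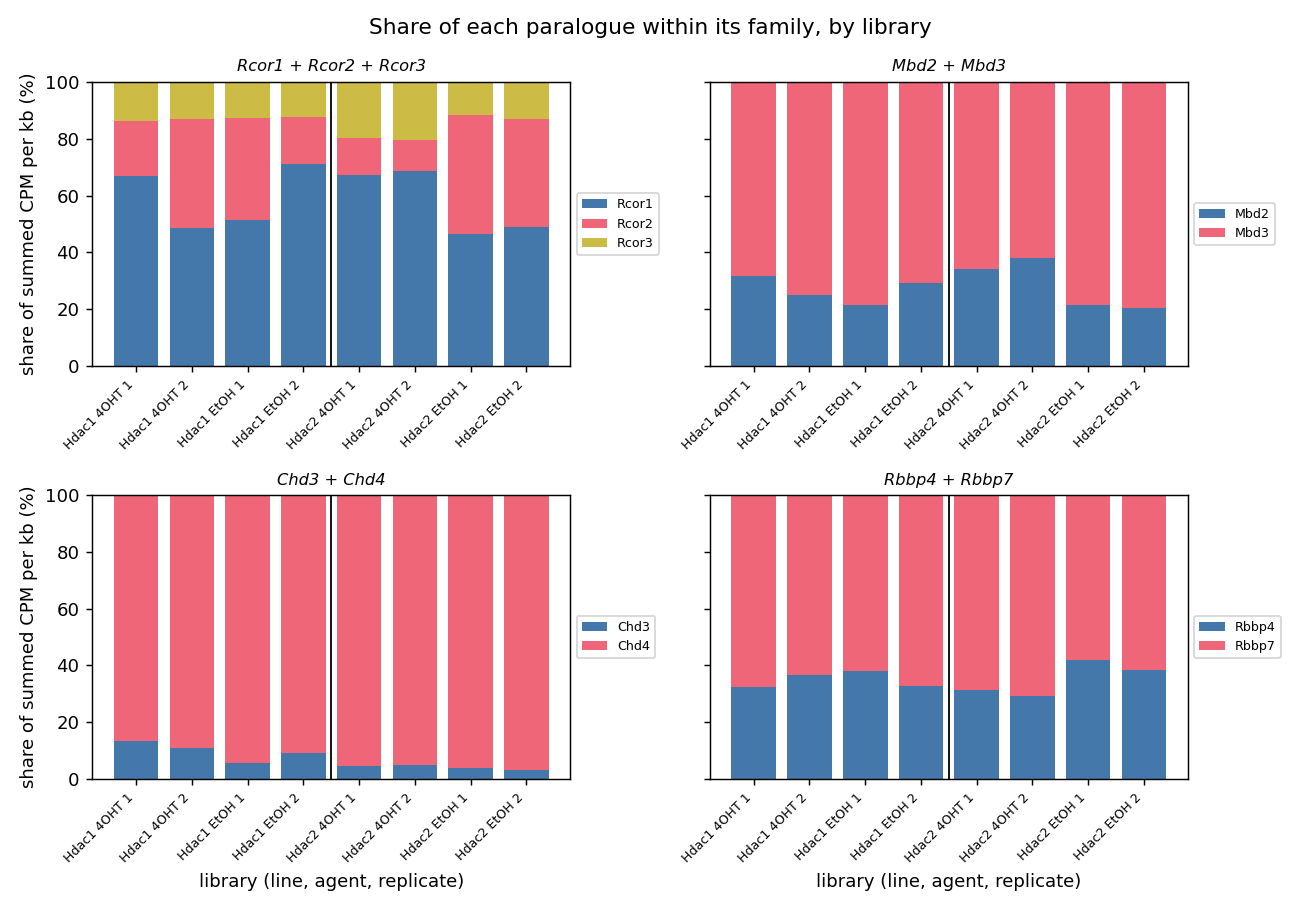
Share of each paralogue (percent of the family's summed CPM per kb of longest transcript, stacked to 100%) in each of the 8 libraries, for the Rcor, Mbd, Chd and Rbbp families. In the Hdac2 line the Rcor2 and Rbbp4 segments are smaller and the Mbd2 segment larger in both 4OHT libraries than in both EtOH libraries.

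Of the other CoREST genes, Phf21a, whose product reads unmethylated histone H3 tails, had 40.8 and 50.4 CPM in Hdac2 4OHT, against 24.5 and 19.1 CPM in Hdac2 EtOH (log2 fold change 1.06 ± 0.20 (SE), adjusted p = 0.0117). Kdm1a, which encodes the demethylase itself, had 149 and 141 CPM in Hdac2 4OHT and 130.1 and 133 CPM in Hdac2 EtOH, with a log2 fold change of 0.14 and a 95% interval from -0.17 to 0.46. Hmg20b, a DNA-binding subunit, Zmym2 and Zmym3, zinc finger subunits, were not called, with log2 fold changes of -0.38, 0.43 and -0.27 and adjusted p-values of 0.144, 0.188 and 0.254. In NCoR, the scaffold gene Ncor1, on chromosome 11 from 62316426 to 62458541, had 203 and 273 CPM in Hdac2 4OHT, against 67.1 and 90.6 CPM in Hdac2 EtOH (log2 fold change 1.60 ± 0.32 (SE), adjusted p = 0.0137). Its exons overlap 82 bases of Pigl on the opposite strand, which had 0.107 times its mean count. Its partner Tbl1xr1, a WD-repeat exchange factor, was not called (log2 fold change 0.05, adjusted p = 0.866). Nor was Dnttip1, the MiDAC scaffold (log2 fold change -0.28, adjusted p = 0.354).

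The upstream sequences of 4 called genes are shown because they include the opposed pair Rcor3 (higher) and Rcor2 (lower), with Chd4 (higher) and Rbbp4 (lower) as the most abundant called genes of each direction. They are from RefSeq on GRCm38.p6, 5′ to 3′ on the gene's strand, and end before the most upstream annotated start; capitals mark GGGCGG, the letters of an SP-type GC box, on either strand.
Rcor3 promoter, chr1:192138063-192138290, minus strand: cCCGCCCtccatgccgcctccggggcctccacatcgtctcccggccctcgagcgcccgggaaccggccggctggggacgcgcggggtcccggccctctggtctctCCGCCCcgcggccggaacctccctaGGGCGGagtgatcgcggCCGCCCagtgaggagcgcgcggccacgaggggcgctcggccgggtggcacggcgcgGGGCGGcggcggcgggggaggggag
Chd4 promoter, chr6:125095731-125095980, plus strand: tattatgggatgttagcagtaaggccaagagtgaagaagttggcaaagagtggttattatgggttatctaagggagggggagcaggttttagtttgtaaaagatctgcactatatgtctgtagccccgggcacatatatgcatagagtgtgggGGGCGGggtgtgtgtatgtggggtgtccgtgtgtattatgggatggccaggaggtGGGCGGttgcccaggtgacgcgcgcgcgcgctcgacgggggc
Rcor2 promoter, chr19:7267144-7267324, plus strand: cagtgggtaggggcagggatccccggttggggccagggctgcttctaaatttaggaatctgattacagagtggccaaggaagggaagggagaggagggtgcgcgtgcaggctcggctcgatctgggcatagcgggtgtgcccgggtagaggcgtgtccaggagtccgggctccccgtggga
Rbbp4 promoter, chr4:129335371-129335620, minus strand: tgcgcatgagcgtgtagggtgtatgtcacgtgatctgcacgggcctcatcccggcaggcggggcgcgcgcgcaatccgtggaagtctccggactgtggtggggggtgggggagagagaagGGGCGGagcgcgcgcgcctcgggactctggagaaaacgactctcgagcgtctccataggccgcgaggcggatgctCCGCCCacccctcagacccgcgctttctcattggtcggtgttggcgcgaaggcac
In the printed stretches GGGCGG occurs 5 times for Rcor3, 2 times for Chd4, 0 times for Rcor2 and 2 times for Rbbp4. The stretches of Rcor3 and Rcor2 are cut to 228 and 181 bases, and their whole 250-base windows hold GGGCGG 6 times for Rcor3 and 1 time for Rcor2. RefSeq starts were matched for 31 of the 38 genes, giving 46 windows of 250 bases before a start. Of these windows 80.4% hold GGGCGG, against 32.7% of the 32851 windows of all genes. The 32851 windows were not limited to genes that passed the filter on low counts, while all 38 subunit genes passed it. The median window of the subunit genes had 23 CpG, against 6 in all windows. The other motifs were also searched on both strands. An ETS core, CCGGAAG, was in 10.9% of the subunit windows and 6.91% of all windows. The letters CCAAT were in 50.0% of the subunit windows and 33.8% of all windows, and the cyclic AMP response element TGACGTCA was in 1 of the 46 subunit windows and 1.55% of all windows. A RUNX core, TGTGGT, was in 15.2% of the subunit windows and 14.0% of all windows. The GATA letters AGATAA were in 4.35% of the subunit windows and 9.99% of all windows. Several windows belong to the same gene and overlap, and a match describes letters, not a bound site.

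**Figure D3:**
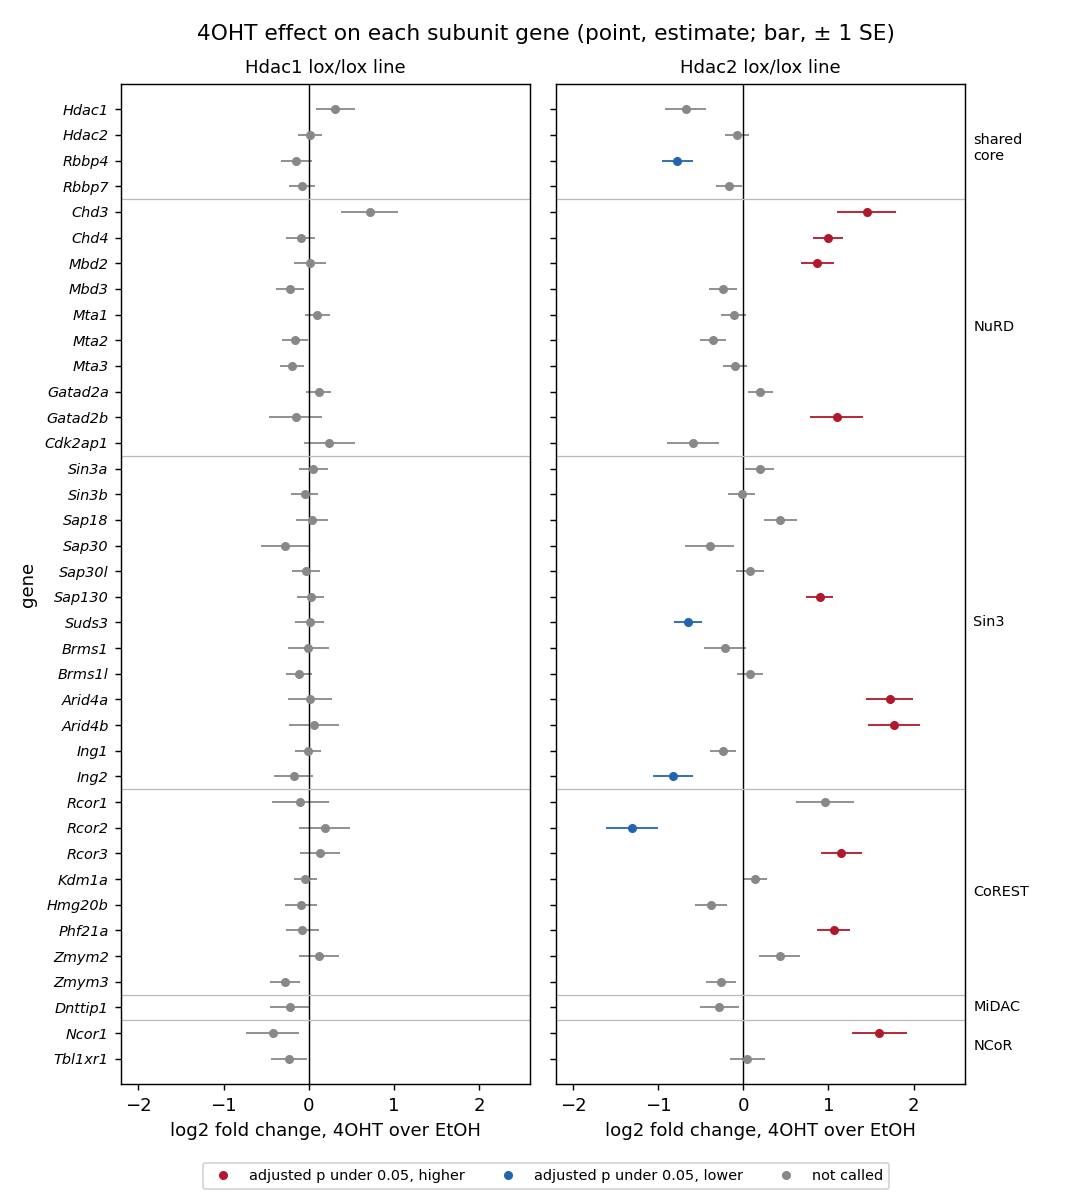
Log2 fold change, 4OHT over EtOH, of each of the 38 genes in the Hdac1 line (left) and the Hdac2 line (right), as the edgeR estimate (point) with 1 SE on either side (bar). Called genes are coloured: 10 higher and 4 lower in the Hdac2 panel and 0 in the Hdac1 panel.

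In the Hdac1 line, 0 of the 38 genes were called after 4OHT by edgeR, against 0% of the 14179 genes tested. At an unadjusted p under 0.05 there were again 0 of the 38, against 6.68% of all genes (4.21% higher and 2.47% lower), and DESeq2 called 0 of the 38 and 32 genes in all. The log2 fold changes ran from -0.42 for Ncor1 to 0.71 for Chd3, with a median of -0.03 over the 38 genes and -0.02 over all genes. Chd3 had 118 and 73.7 CPM in Hdac1 4OHT and 39.8 and 77.0 CPM in Hdac1 EtOH, which overlap (95% interval -0.05 to 1.48). Ncor1 had 326 and 221 CPM in Hdac1 4OHT and 272 and 462 CPM in Hdac1 EtOH, also overlapping (95% interval -1.16 to 0.31). The libraries of the agents did not overlap for 4 of the 38 genes (Hdac1 and Mta1 higher, Mta3 and Zmym3 lower), against 31.2% of all genes tested (15.8% higher and 15.4% lower).

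Replicates of the Hdac1 line differed from each other for several of the genes called in the Hdac2 line. Arid4a had 46.6 and 29.7 CPM in Hdac1 4OHT and 30.9 and 44.5 CPM in Hdac1 EtOH, and Arid4b had 66.0 and 45.4 CPM in Hdac1 4OHT and 37.9 and 69.2 CPM in Hdac1 EtOH. Rcor1 had 122 and 76.3 CPM in Hdac1 4OHT and 72.1 and 141 CPM in Hdac1 EtOH, and Rcor2 had 17.5 and 29.8 CPM in Hdac1 4OHT and 25.3 and 16.5 CPM in Hdac1 EtOH. Hdac1 4OHT replicate 1 and Hdac1 EtOH replicate 2 were high for Arid4a, Arid4b and Rcor1 and low for Rcor2, and the other two libraries were the reverse. The same libraries had erythroid sums of 147 CPM (4OHT replicate 1) and 267 CPM (EtOH replicate 2), against 409 CPM (4OHT replicate 2) and 880 CPM (EtOH replicate 1). Endothelial sums, in the same order, were 5579 and 4990 CPM, against 3975 and 3262 CPM. Genes with a longest annotated transcript of at least 5000 bases took 31.1 and 32.2% of counts, against 25.5 and 23.1%, again in this order. The part of each in these replicate differences was not tested.

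Apart from Hdac1, given above, the agents' libraries overlapped in the Hdac1 line for the other genes called or changed in the Hdac2 line or between EtOH groups. Chd4 had 708 and 564 CPM in Hdac1 4OHT and 643 and 716 CPM in Hdac1 EtOH, Mbd2 had 77.9 and 62.5 CPM in Hdac1 4OHT and 62.4 and 76.5 CPM in Hdac1 EtOH, and Gatad2b had 36.7 and 20.6 CPM in Hdac1 4OHT and 25.7 and 37.9 CPM in Hdac1 EtOH. Sap130 had 109 and 100.2 CPM in Hdac1 4OHT and 99.3 and 106 CPM in Hdac1 EtOH, Rcor3 had 16.8 and 13.6 CPM in Hdac1 4OHT and 11.8 and 15.9 CPM in Hdac1 EtOH, and Phf21a had 39.1 and 37.1 CPM in Hdac1 4OHT and 36.7 and 43.7 CPM in Hdac1 EtOH. All 6 were high in Hdac1 4OHT replicate 1 and Hdac1 EtOH replicate 2 and low in the other two libraries. Rbbp4 had 235 and 261 CPM in Hdac1 4OHT and 311 and 238 CPM in Hdac1 EtOH, Suds3 had 51.0 and 61.1 CPM in Hdac1 4OHT and 61.1 and 50.4 CPM in Hdac1 EtOH, and Ing2 had 35.6 and 45.8 CPM in Hdac1 4OHT and 55.0 and 37.3 CPM in Hdac1 EtOH, and these 3 were the reverse. Cdk2ap1 had 10.2 and 12.1 CPM in Hdac1 4OHT and 10.7 and 8.25 CPM in Hdac1 EtOH. Sap18 had 31.2 and 25.1 CPM in Hdac1 4OHT and 24.8 and 30.1 CPM in Hdac1 EtOH, and Zmym2 had 94.4 and 78.3 CPM in Hdac1 4OHT and 65.3 and 93.5 CPM in Hdac1 EtOH. In Hdac2 4OHT libraries Sap18 stood at 19.5 and 17.4 CPM and Zmym2 at 57.0 and 59.2 CPM.

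Whether the response differed between the lines was tested directly, as the 4OHT effect in the Hdac2 line minus that in the Hdac1 line. No subunit gene passed after adjustment in edgeR, against 0.0282% of all genes (4 genes, 0.0141% higher and 0.0141% lower). At an unadjusted p under 0.05 there were 13 of the 38, 9 with a higher and 4 with a lower effect in the Hdac2 line, against 28.0% of all genes (15.5% and 12.5%), and DESeq2 called 7 of the 38, against 12.6% of all genes. The smallest adjusted p was 0.0788, for Arid4a (difference 1.71 ± 0.38 (SE)) and Ncor1 (difference 2.02 ± 0.45 (SE)). Rcor2 had the largest negative difference, -1.49 ± 0.42 (SE) (adjusted p = 0.0952). Hdac1, higher in both 4OHT libraries of the Hdac1 line and lower in both of the Hdac2 line, had a difference of -0.99 ± 0.33 (SE) (adjusted p = 0.119). Summed with Gm10093, Hdac1 was lower in both 4OHT libraries of both lines, and the difference was -0.17 (adjusted p = 0.613). Without Hdac1 EtOH replicate 1, 13 of the 38 genes were called, against 25.8% of all genes, and with length and GC offsets (described with the length results) 2 were called higher and 0 lower, against 2.33% of all genes (1.51% higher and 0.818% lower). The 14 calls in the Hdac2 line are therefore not shown to be particular to that line.

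The lines also differed without 4OHT. Between EtOH libraries, 7 of the 38 genes were called higher in the Hdac1 line than in the Hdac2 line and 0 lower, which is 18.4% of the subunits against 9.33% of all genes (6.42% higher and 2.91% lower). At an unadjusted p under 0.05 there were 14 higher and 2 lower, against 18.5% and 14.6% of all genes (33% in either direction). The libraries did not overlap for 23 genes higher and 8 lower, against 30.3% and 29.9% (60.1% in either direction). The median log2 difference was 0.33 over the 38 genes and 0.01 over all genes. Ncor1 had 272 and 462 CPM in Hdac1 EtOH, against 67.1 and 90.6 CPM in Hdac2 EtOH, a log2 difference of 2.22 ± 0.33 (SE) (adjusted p = 0.0183). Chd3 had 39.8 and 77.0 CPM in Hdac1 EtOH, against 14.3 and 12.9 CPM in Hdac2 EtOH, a log2 difference of 2.10 ± 0.35 (SE) (adjusted p = 0.0233). These were the largest differences among the 38 genes, and for both every Hdac1 EtOH library lay above every Hdac2 EtOH library.

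Arid4a differed by 1.33 ± 0.27 (SE) on the log2 scale (30.9 and 44.5 CPM in Hdac1 EtOH, 14.5 and 15.7 CPM in Hdac2 EtOH, adjusted p = 0.0326), and Sap130 by 0.99 ± 0.16 (SE) (99.3 and 106 CPM in Hdac1 EtOH, 48.7 and 55.0 CPM in Hdac2 EtOH, adjusted p = 0.0228). Chd4 differed by 0.94 ± 0.17 (SE) (643 and 716 CPM in Hdac1 EtOH, 337 and 371 CPM in Hdac2 EtOH, adjusted p = 0.0282) and Phf21a by 0.88 ± 0.20 (SE) (36.7 and 43.7 CPM in Hdac1 EtOH, 24.5 and 19.1 CPM in Hdac2 EtOH, adjusted p = 0.0376). Sap18, an RNA-processing and Sin3 subunit, had 24.8 and 30.1 CPM in Hdac1 EtOH, against 13.5 and 13.8 CPM in Hdac2 EtOH (log2 difference 1.01 ± 0.19 (SE), adjusted p = 0.0289). With the copy Gm10094 added, a gene named after its values were seen, the Sap18 difference was 0.59 and no longer called (adjusted p = 0.0599). Arid4b (log2 difference 1.18, adjusted p = 0.0503), Zmym2 (0.88, adjusted p = 0.0573) and Rcor1 (0.81, adjusted p = 0.141) missed the threshold. Zmym2 had 65.3 and 93.5 CPM in Hdac1 EtOH and 35.5 and 50.9 CPM in Hdac2 EtOH, Arid4b had 37.9 and 69.2 CPM in Hdac1 EtOH and 22.8 and 24.6 CPM in Hdac2 EtOH, and Rcor1 had 72.1 and 141 CPM in Hdac1 EtOH and 55.4 and 66.0 CPM in Hdac2 EtOH. All 3 were higher in both Hdac1 EtOH libraries.

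Of the 7 genes, Chd3, Chd4, Sap130, Arid4a, Phf21a and Ncor1 were also called higher in Hdac2 4OHT over Hdac2 EtOH. Both comparisons use the same Hdac2 EtOH libraries, so these calls are not independent. The EtOH calls also depend on single libraries: 0 of the 38 genes were called without Hdac2 EtOH replicate 1 or without replicate 2, 2 without Hdac1 EtOH replicate 2 (1.23% of all genes), 12 without Hdac1 EtOH replicate 1 (26.7% of all genes), and 1 without each Hdac2 4OHT library in turn (1.19% and 1.18% of all genes). All 7 kept their sign in each of these fits. Their EtOH libraries did not overlap between the lines, so leaving out 1 library could hardly change a sign, and this adds no support. Erythroid sums were 880 and 267 CPM in Hdac1 EtOH and 1560 and 1516 CPM in Hdac2 EtOH. Among the 27 marker genes tested Runx1 (haemogenic) and Myh6 (cardiac) were called higher in Hdac1 EtOH and 0 lower. That is 7.41% of the markers, against 9.33% of all genes. Myh6 was near the floor, at 0.709 and 1.25 CPM in Hdac1 EtOH and 0.130 and 0 CPM in Hdac2 EtOH. Without overlap of the libraries, 4 of 5 endothelial markers were higher in Hdac1 EtOH, against 30.3% of all genes. In the same way 5 of 5 erythroid markers were lower, against 29.9% of all genes. The part of such markers in these differences was not tested.

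Transcript length moved with both sets of calls. Genes with a longest annotated transcript of at least 5000 bases took 31.1% and 25.5% of counts in Hdac1 4OHT, 23.1% and 32.2% in Hdac1 EtOH, 30.9% and 33.1% in Hdac2 4OHT, and 18.3% and 19.9% in Hdac2 EtOH. In the Hdac2 line the median log2 fold change of all genes was -0.63 for transcripts under 1000 bases and 1.09 for those of 7000 bases or more. Over the 38 genes, Spearman's rho between length and log2 fold change was 0.53 in the Hdac2 line, beside 0.48 over 14122 genes, and 0.55 between the EtOH groups, beside 0.37; these describe genes measured in the same libraries, not replicates. The 10 higher genes had a median length of 6098 bases (1953 to 9037) and the 4 lower ones 3743 bases (2812 to 9778). Mbd2, called higher at 1953 bases, and Suds3, called lower at 9778 bases, ran against this trend.

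**Figure D4:**
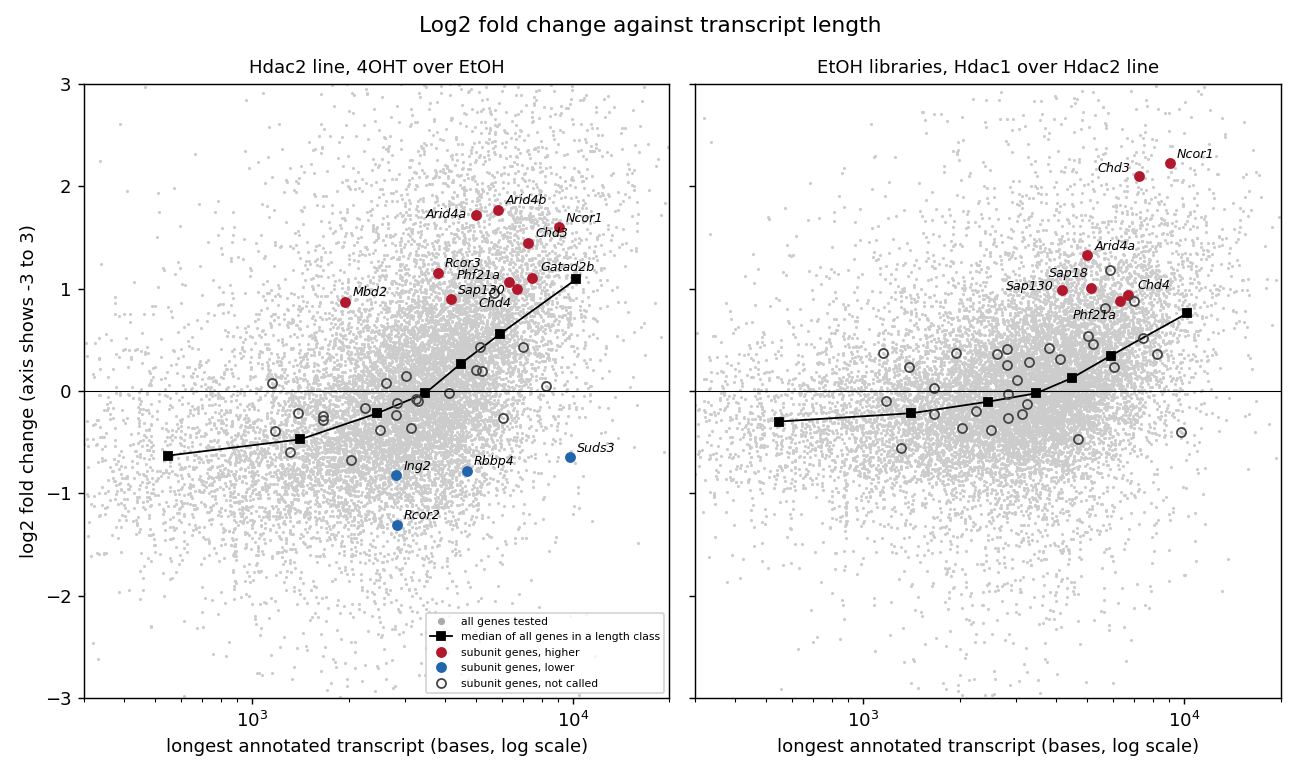
Log2 fold change against longest annotated transcript (bases, log scale) for all genes tested (grey), the median in each length class (black squares, drawn near the middle of the class) and the 38 subunit genes (circles), in the Hdac2 line, 4OHT over EtOH (left), and between EtOH libraries, Hdac1 line over Hdac2 line (right). The genes called higher (red) lie above the line of medians, mostly toward long transcripts, and in the left panel the genes called lower (blue) lie below it.

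With per-library offsets for transcript length and GC content, an alternative added after the data were seen, 12 of the 38 genes were called in the Hdac2 line, 6 higher and 6 lower, against 33.6% of all genes (17.1% higher and 16.5% lower). Of the 14 calls 10 remained. Arid4a (log2 fold change 1.40, adjusted p = 0.00414), Arid4b (1.31, adjusted p = 0.00402), Rcor3 (1.17, adjusted p = 0.00809), Mbd2 (1.15, adjusted p = 0.0135), Sap130 (0.75, adjusted p = 0.00776) and Ncor1 (0.51, adjusted p = 0.0293) stayed higher. Rcor2 (-1.29, adjusted p = 0.0111), Rbbp4 (-1.03, adjusted p = 0.0131), Suds3 (-1.82, adjusted p = 0.00957) and Ing2 (-0.66, adjusted p = 0.0392) stayed lower. The opposed calls of Rcor2 and Rcor3 thus held under the offsets. The 4 calls lost were Chd3 (0.56, adjusted p = 0.0577), Chd4 (0.26, adjusted p = 0.174), Gatad2b (0.25, adjusted p = 0.276) and Phf21a (0.38, adjusted p = 0.146), which include both NuRD ATPases. Zmym3 and Tbl1xr1 were called lower under the offsets (-0.88, adjusted p = 0.0144, and -0.84, adjusted p = 0.00909). Between EtOH groups 9 of the 38 were called higher and 0 lower with the offsets, against 8.87% and 7.48% of all genes (16.4% in either direction), and 6 of the 7 calls remained, with Phf21a lost (0.45, adjusted p = 0.128).

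Other genes of these pathways were taken from a list of 28 symbols, of which 26 were in the table and 24 were tested. In the Hdac2 line 7 of the 24 were called higher and 2 lower after 4OHT, with a median log2 fold change of 0.31. That is 37.5% of the list, against 36.1% of all genes (18.9% higher and 17.2% lower), so the number of calls is near the background. Without Hdac2 EtOH replicate 2, these 9 kept their sign but, as given above, were not called. Their 4OHT and EtOH libraries did not overlap, so leaving out 1 library could hardly change a sign. Gfi1b, the repressor that recruits LSD1-CoREST in blood cells, had 7.06 and 6.49 CPM in Hdac2 4OHT, against 41.5 and 46.5 CPM in Hdac2 EtOH (log2 fold change -2.70 ± 0.39 (SE), adjusted p = 0.00868). Gfi1b is also expressed in erythroid cells, whose markers fell in the same libraries. The paralogue Gfi1 had 13.1 and 9.77 CPM in Hdac2 4OHT and 12.3 and 11.4 CPM in Hdac2 EtOH and was not called (adjusted p = 0.928).

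The genes called higher in this list were Trerf1 (2.11) and Elmsan1 (0.74), both of MiDAC, the atrophin genes Atn1 (1.69) and Rere (1.66), Rest (1.59), a repressor that recruits CoREST and Sin3, Zmynd8 (1.06), a reader that binds NuRD, and the Sin3 subunit Phf12 (0.77), all as log2 fold changes. Hdac3, the deacetylase of NCoR, had 42.4 and 38.9 CPM in Hdac2 4OHT, against 61.5 and 62.4 CPM in Hdac2 EtOH, and was called lower (-0.61, adjusted p = 0.0485). With the length and GC offsets 6 of the 24 were higher and 3 lower, against 17.1% and 16.5% of all genes, with a median of 0.02. Elmsan1 was then no longer called and its direction turned (-0.11, adjusted p = 0.521), while the other 6 stayed higher and Gfi1b and Hdac3 stayed lower. Phf12 was at 0.54, Zmynd8 at 0.42 and Rere at 0.72 on the log2 scale with the offsets. In the Hdac1 line 0 of the 24 were called by edgeR, with 1 at an unadjusted p under 0.05, against 6.68% of all genes, and 0 passed the test of the difference between lines, with 9 at an unadjusted p under 0.05, against 28.0% of all genes. Between EtOH groups 7 of the 24, 29.2% of the list, were higher in the Hdac1 line and 0 lower, against 6.42% and 2.91% of all genes, with 0 called without Hdac2 EtOH replicate 2. Among the 7 was Gse1, a CoREST partner, at 231 and 358 CPM in Hdac1 EtOH, against 62.8 and 93.0 CPM in Hdac2 EtOH (log2 difference 1.92 ± 0.30 (SE), adjusted p = 0.0207).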

How the data were processed

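Counts came from RNA-seq of 8 libraries. Per the labels' protocols, libraries were made from 200 ng of total RNA with an Agilent SureSelect kit that keeps strand, using 15 rounds of amplification. The authors deposited raw counts of reads per gene, as whole numbers. The submitters' processing notes name the build mm10 and, without saying what each did, the tools edgeR 3.8.5, R 3.1.0, Bowtie2 2.2.1, bcl2fastq 2.17.1.14 and SAMtools 0.1.19. How reads were counted, the annotation, the strand setting and the handling of multi-mapping reads were not given in the sources used here; genes with near-identical copies or antisense neighbours are uncertain.

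Groups came from the sample titles. Genes passing filterByExpr (14179, holding 99.9% of counts) were TMM-scaled in edgeR 4.0.16 (R 4.3.3), and a robust quasi-likelihood model with a mean per group was fitted to all 8 libraries, with 1 estimate of the spread for the 4 groups. P-values were adjusted by Benjamini-Hochberg (threshold 0.05) over all tested genes within each comparison. Standard errors are the log2 fold change over the root of F. Alternatives were other scalings, no filter, DESeq2 1.42.0, limma-voom 3.58.1, each line alone, a replicate block, each library left out, copies added, and length and GC offsets. Per-gene values are given in every library for members called or with a log2 fold change of at least 0.58 in size, and as changes for the others. Copies are tested genes with at least 95% identity over at least 30% of the member's longest transcript (BLAST 2.17.0), plus Gm10094. Lengths and overlaps were read from GENCODE M21. The scripts were tested on simulated data. The members and lists were chosen with earlier results of these data known. An item of the list of other pathway genes is not reported here.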

Additional observations from a re-analysis of the deposited data

How the results depend on the processing

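In the Hdac2 line the number of subunit genes called, 14, was 12 to 18 under every alternative that kept all libraries of the line, and all 14 genes kept their sign. Leaving out a library gave 0 to 15 called there, 0 to 13 for the difference between the lines, and 0 to 12 between EtOH groups. For the difference between the lines, where 0 were called, no filter gave 6, DESeq2 7 and the length and GC offsets 2 (Arid4a and Arid4b). The shares of all genes called in these fits were 5.5%, 12.6% and 2.33%. Upper quartile scaling shifted the median of all genes by -0.13 in the Hdac2 line and library sizes alone by -0.12 (the difference between the lines shifted by -0.12 under upper quartile scaling); Hdac1 was then called lower, at -0.81 and -0.80. Between EtOH groups library sizes alone put 79.8% of all calls higher in the Hdac1 line, against 68.9% with TMM. The difference for Chd3 was -0.080 under the offsets, against 0.73 without them, and the cause was not tested. Same-numbered libraries deviated with a correlation of -0.67 in the Hdac1 line, 0.24 in the Hdac2 line and -0.04 between EtOH groups, so the numbers were not taken to pair libraries. With a replicate block 12 subunits were called in the Hdac2 line (25.6% of all genes) and 1, Ncor1, between EtOH groups (1.3% of all genes). In the other comparisons 0 were called, against 0% of all genes. With the Hdac1 numbers crossed, added after seeing the data, 18 were called in the Hdac2 line, against 47.1% of all genes. Between EtOH groups 13 were called, against 25.2% of all genes, and for the difference 10, against 17.9%. In the Hdac1 line 0 were called, against 0% of all genes.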
